A study of Mus musculus with 12 samples.

Results

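The Hox genes of the 4 mammalian clusters were described across organoids grown from mouse colon. The members were chosen by name and not by level: every protein-coding gene of GENCODE vM21 whose symbol is Hox, a cluster letter from a to d and a number, which gave 39 genes among the 48795 genes of the table. Hoxa holds 11 of them, Hoxb 10, Hoxc 9 and Hoxd 9. Reads were found for 37 members, and Hoxc12 and Hoxd12 had none in any library. A total of 24 members reached a mean normalized count of 10 in at least 1 group, and 23 were tested, having a normalized count of 10 or more in 3 or more libraries.

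Total RNA was sequenced in 12 libraries of C57BL/6 colonic organoids, 3 for each of 4 groups. Crypts came from WT animals or from animals whose label reads AhR deficient (called KO here), AhR being the aryl hydrocarbon receptor, a ligand-activated transcription factor. All organoids were expanded in WENR medium, which supplies the growth factors Wnt-3A and EGF, the BMP inhibitor Noggin and the Wnt agonist R-spondin-1, and the stem libraries come from that culture. The differentiated libraries come from organoids kept for 3 days in ENR medium, which lacks Wnt-3A. The titles write the KO genotype as AhR-/-. The labels name neither the targeted Ahr allele, the age and sex of the mice, nor the stretch of colon the crypts came from, and do not say whether the 3 numbers of a group are separate mice, so p-values measure the spread between these libraries, which may be technical.

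Hox genes encode homeodomain transcription factors that lie in clusters in the order in which they are used along the body axis. Paralogs with low numbers sit at the 3′ end of a cluster and are switched on early and towards the head, and those with high numbers sit at the 5′ end and mark the trunk, the hindgut and the tail. The gut keeps part of this code in adult epithelium and mesenchyme. Cdx factors and Wnt signals activate central and posterior Hox genes in the embryo, Polycomb complexes keep unused parts of the clusters silent, and Pbx and Meis proteins bind DNA together with Hox proteins.

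The libraries held between 25.1 and 99.0 M recovered reads, and 3 reads correspond to a normalized count between 1.62 and 6.81. Epithelial markers were high throughout, but not constant. The summed level of 8 markers was 701803 to 750362 in WT stem and 597672 to 700300 in KO stem libraries. In differentiated libraries it was 1501725 to 1631321 in WT and 1270767 to 1339763 in KO. It was thus higher after withdrawal, and lower in KO than in WT in each culture. WT stem library 1 stood apart: the summed level of 15 fibroblast and muscle markers was 22299.9 there and between 57.98 and 645 in the other 11 libraries, with the highest of these in KO stem library 3. In that WT library Vim stood at 13196 and Col1a1 at 4788, while Dcn and Lum were at 0. Some markers of other cells moved with culture too. The sum of 9 immune, blood and endothelial markers was 3.26 to 11.5 in WT stem, 4.07 to 8.07 in KO stem, 35.9 to 52.2 in WT differentiated and 19.1 to 24.6 in KO differentiated libraries, with Cd3e at 0 and Ptprc at most 5.97. The sum of 6 enteric neuron and glia markers was 222 to 308, 166 to 235, 766 to 966 and 305 to 376 in the same order, nearly all of it Ret, with Sox10 at most 1.52. The part of the epithelial and other cell markers in the Hox changes was not tested. Ahr itself was higher under the KO label, at 2503 to 2831 against 1746 to 1909 in stem libraries and 3110 to 3824 against 2127 to 2260 in differentiated ones. Since the allele is not given, the whole-gene count cannot show whether its targeted part is missing, and KO is used here as the label only.

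Hoxb dominated the Hox transcripts of the organoids. On the scale of normalized count per kb of exon, Hoxb genes made up between 71.5% and 92.0% of the Hox total of a library, Hoxa genes between 5.10% and 25.6%, Hoxd genes between 1.64% and 7.64% and Hoxc genes at most 0.917%. The highest levels per kb over all 12 libraries were those of Hoxb9 (chromosome 11, 96271457 to 96276595) at 2200.4, Hoxb6 at 1044, Hoxb7 at 668 and Hoxb8 at 328, followed by Hoxb3 at 159, Hoxd8 at 145, Hoxa10 at 129 and Hoxa7 at 109.8. Hoxb5 at 105, Hoxa5 at 104 and Hoxa9 at 94.8 were close neighbours in this order. Dividing by coding length instead of exon length left the first 4 places as they were and moved Hoxa9 from place 11 to place 5. Expression stopped short of the 5′ end in Hoxd, where none of Hoxd10, Hoxd11, Hoxd12 and Hoxd13 had more than 11 reads in a library, while in Hoxa it ran through to Hoxa13.

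**Figure D1:**
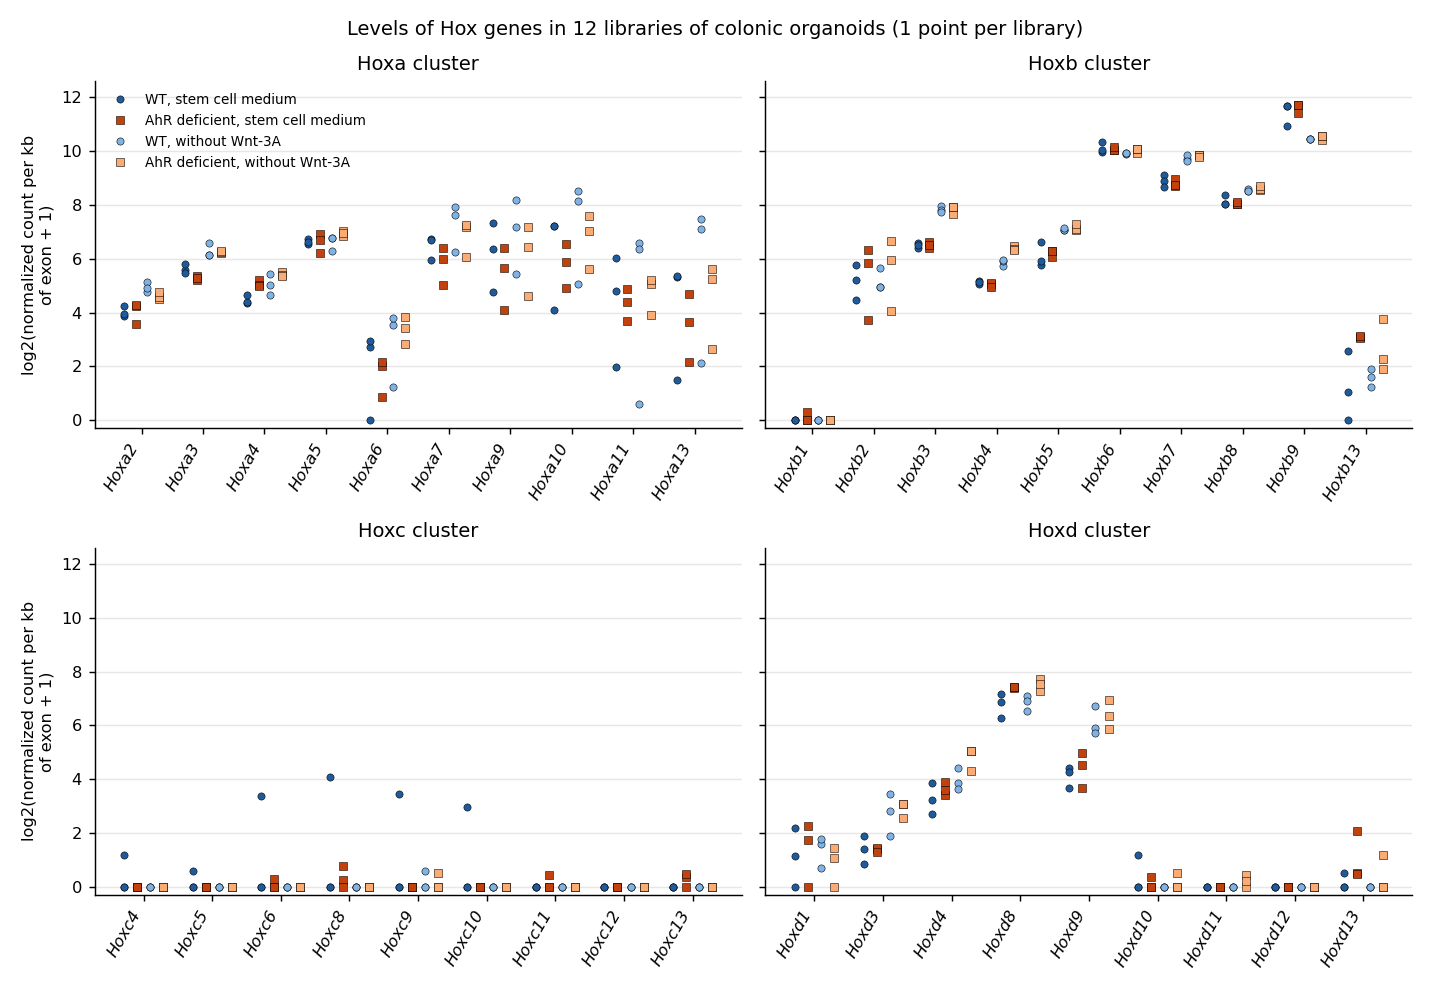
Level of Hox genes on a log2(normalized count per kb of exon + 1) axis, in 4 panels by cluster, with 1 point per library and the groups marked by colour and shape. Hoxb6 to Hoxb9 lie highest, Hoxa9 to Hoxa13 and Hoxb2 spread widely within each group, and the Hoxc points above 2 belong to WT stem library 1.

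The 250 bases before the start of a gene are shown for 5 members on which the later results turn, as RefSeq gives them on GRCm38.p6. Such a window was held for 22 of the 39 members, in 24 rows. Capitals mark GCGTG or its reverse complement CACGC, the core letters bound by AhR with its partner ARNT. Hoxa9 (chr6:52227371-52227620, minus strand), Hoxa10 at its 3′-most start (chr6:52234940-52235189, minus strand) and Hoxa13 (chr6:52260881-52261130, minus strand) are shown as the posterior Hoxa genes that differed by the number in the library titles, and Hoxb4 (chr11:96318017-96318266, plus strand) and Hoxd8 (chr2:74704365-74704614, plus strand) as genes that differed with the genotype label. The Hoxa9 and Hoxa10 windows lie in introns of longer transcripts of the same genes, the Hoxd8 window lies in an intron of the antisense gene Hoxd3os1, and none of the 5 overlaps an annotated exon.
Hoxa9: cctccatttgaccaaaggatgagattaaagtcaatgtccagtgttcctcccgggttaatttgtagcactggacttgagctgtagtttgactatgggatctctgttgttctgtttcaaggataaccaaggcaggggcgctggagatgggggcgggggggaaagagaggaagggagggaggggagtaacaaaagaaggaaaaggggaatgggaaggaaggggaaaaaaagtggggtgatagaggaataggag
Hoxa10: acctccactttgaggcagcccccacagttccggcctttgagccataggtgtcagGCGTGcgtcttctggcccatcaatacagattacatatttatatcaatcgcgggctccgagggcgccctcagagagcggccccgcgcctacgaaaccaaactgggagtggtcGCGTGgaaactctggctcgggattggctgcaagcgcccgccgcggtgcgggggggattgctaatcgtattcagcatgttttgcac
Hoxa13: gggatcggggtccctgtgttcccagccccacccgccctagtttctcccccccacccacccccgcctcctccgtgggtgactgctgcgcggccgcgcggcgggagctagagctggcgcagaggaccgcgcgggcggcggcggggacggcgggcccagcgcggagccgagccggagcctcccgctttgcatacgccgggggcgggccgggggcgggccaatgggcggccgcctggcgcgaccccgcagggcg
Hoxb4: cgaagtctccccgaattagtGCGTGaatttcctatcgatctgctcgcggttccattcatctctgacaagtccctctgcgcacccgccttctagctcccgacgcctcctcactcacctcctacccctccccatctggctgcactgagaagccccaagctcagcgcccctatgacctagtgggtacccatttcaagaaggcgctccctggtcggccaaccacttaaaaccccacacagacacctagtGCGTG
Hoxd8: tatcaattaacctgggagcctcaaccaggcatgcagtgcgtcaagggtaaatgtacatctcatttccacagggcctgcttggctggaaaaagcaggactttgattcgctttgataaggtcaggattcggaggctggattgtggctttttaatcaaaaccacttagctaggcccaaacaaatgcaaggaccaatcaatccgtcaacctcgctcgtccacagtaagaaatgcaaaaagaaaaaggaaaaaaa
The core was found in 7 of the 24 Hox windows (29.2%) and in 28.2% of the 32851 windows of the same length over all genes. Hoxa10 at this start and Hoxb4 each held 2 matches and Hoxa9, Hoxa13 and Hoxd8 none. The window at the other Hoxa10 start, not shown, held none either. TTTATG or CATAAA, the core letters of Cdx binding, which can share at most 1 base with the other motif, stood in 5 Hox windows (20.8%) against 10.8% of all windows, and in none of the 5 shown. The Hoxa13 window is 80.0% G and C with 35 CpG pairs, against 49.6% and 3 for Hoxa9. A match of letters is a description and not a binding site.

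Within Hoxb (chromosome 11, 96194316 to 96368256, GRCm38), the genes from Hoxb3 to Hoxb9 were alike between libraries, with Hoxb6 to Hoxb9 the highest. Hoxb9, which patterns the thoracic skeleton, stood at 5077, 8354 and 8383 in the WT stem, 6936, 8513 and 8609 in the KO stem, 3622, 3611 and 3625 in the WT differentiated and 3532, 3865 and 3839 in the KO differentiated libraries. Every differentiated library lay below every stem library, and WT stem library 1 was the lowest of the stem libraries. In log2 of the normalized count plus 1, the scale of all changes given here, Hoxb9 fell on differentiation by 0.97 ± 0.16 in WT (limma, adjusted p = 2.07e-04) and by 1.09 ± 0.16 in KO (adjusted p = 9.80e-05), where ± is a standard error. Without WT stem library 1 the change in WT was -1.21 ± 0.08. Hoxb9 accounted for between 40.9% and 55.5% of the per-kb Hox total in stem libraries and between 25.4% and 29.8% in differentiated ones. By limma it was the only member that fell in either genotype. In whole-culture RNA, a change in the share of cells that express a gene and a change in RNA per cell cannot be told apart.

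The genes next to Hoxb9 did not follow it. Hoxb8, which acts in thoracic patterning and in microglia, stood at 683, 861 and 679.8 in the WT stem, 686, 694 and 732 in the KO stem, 965, 1015 and 956 in the WT differentiated and 993, 1004 and 1096 in the KO differentiated libraries. It rose in both genotypes (WT 0.41 ± 0.09, adjusted p = 0.00199; KO 0.55 ± 0.09, adjusted p = 2.81e-04), with no overlap between stem and differentiated libraries. Hoxb7, expressed in the nephric duct and trunk, stood at 849, 729 and 617 in the WT stem, 768, 641 and 658 in the KO stem, 1274, 1423 and 1211 in the WT differentiated and 1422, 1422 and 1361 in the KO differentiated libraries. Its levels also separated completely by culture (WT 0.84 ± 0.11, adjusted p = 4.17e-05; KO 1.03 ± 0.11, adjusted p = 1.04e-05). Hoxb6, a marker of lateral plate mesoderm, stood at 1958, 2509.9 and 2059 in the WT stem, 2042, 2049.7 and 2204 in the KO stem, 1876, 1901 and 1897 in the WT differentiated and 1913, 2096 and 2108 in the KO differentiated libraries. The WT differentiated libraries lay just below the WT stem ones, the KO cultures overlapped, and neither change passed the test (WT -0.19 ± 0.09, adjusted p = 0.0608; KO -0.04 ± 0.09, adjusted p = 0.68). In WT it passed without WT stem library 1 (adjusted p = 0.013), and it was called lower by edgeR (adjusted p = 0.0428) and DESeq2 (adjusted p = 0.0474) on recovered reads.

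The 3′ genes of Hoxb that were expressed rose when Wnt-3A was withdrawn, other than Hoxb2. Hoxb5, a regulator of enteric neural crest, stood at 149.99, 268 and 164 in the WT stem, 213, 182 and 217 in the KO stem, 372, 367 and 388 in the WT differentiated and 366, 376 and 432 in the KO differentiated libraries, so that no stem library reached a differentiated one. Its change was 0.998 ± 0.19, adjusted p = 4.77e-04 in WT and 0.94 ± 0.19, adjusted p = 8.64e-04 in KO. Hoxb4, known for expanding blood stem cells, stood at 83.1, 90.9 and 87.7 in the WT stem, 82.96, 85.9 and 77.4 in the KO stem, 134, 153 and 157 in the WT differentiated and 222, 211 and 201 in the KO differentiated libraries. The KO differentiated libraries were the highest group, the WT differentiated ones came next, and both stem groups lay lowest and overlapped each other. Hoxb3, which patterns the hindbrain and pharyngeal arches, stood at 351, 407 and 379 in the WT stem, 419, 358 and 387 in the KO stem, 1066, 939.98 and 909 in the WT differentiated and 864, 1035 and 1013 in the KO differentiated libraries. With changes of 1.36 ± 0.10, adjusted p = 3.18e-07 in WT and 1.32 ± 0.10, adjusted p = 5.96e-07 in KO it had the smallest adjusted p of the 23 members in both genotypes. Hoxb3 shares 52.9% of its exon length with the antisense gene Hoxb3os, whose mean was 8.19, and the strand use of the counting is not given in the sources used here.

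Outside this stretch Hoxb was low or uneven. Hoxb1, a hindbrain gene, had 1 read in all 12 libraries. Hoxb2, which specifies facial motor neurons, stood at 187, 74.2 and 126 in the WT stem, 42.6, 277 and 195 in the KO stem, 172, 105 and 104 in the WT differentiated and 54.9, 352 and 213 in the KO differentiated libraries. Its spread lay between libraries of a group and not between cultures (WT 0.03 ± 0.74, adjusted p = 0.97; KO 0.28 ± 0.74, adjusted p = 0.757). Hoxb13, the most 5′ Hoxb gene, known from prostate and distal hindgut, stood at 0, 11.1 and 2.31 in the WT stem, 16.7, 16.1 and 17.3 in the KO stem, 3.05, 5.97 and 4.54 in the WT differentiated and 8.38, 27.8 and 6.14 in the KO differentiated libraries. The 3 KO stem libraries were alike and lay above the WT stem ones, but the difference missed the threshold (2.37 ± 0.78, adjusted p = 0.0929) and passed it without WT stem library 2 (adjusted p = 0.0254). Without WT stem library 1, which is at 0, it was 1.49 ± 0.65, adjusted p = 0.162. The differentiated groups differed by 1.21 ± 0.78, adjusted p = 0.27.

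Within Hoxa (chromosome 6, 52155590 to 52260880, all genes on the minus strand), the 3′ genes were low to moderate and alike between libraries. Hoxa2, which patterns the branchial arches, stood at 24.5, 32.1 and 25.4 in the WT stem, 19.4, 31.6 and 32.6 in the KO stem, 61.03, 46.6 and 52.2 in the WT differentiated and 38.9, 40.6 and 46.4 in the KO differentiated libraries. Every differentiated library was above every stem library, with 0.94 ± 0.24, adjusted p = 0.00367 in WT and 0.61 ± 0.24, adjusted p = 0.0393 in KO. The KO call was lost without KO stem library 1 or any of the KO differentiated libraries (adjusted p between 0.0538 and 0.165) and under edgeR (0.0554) and DESeq2 (0.0549). Hoxa3, needed for thymus and parathyroid, stood at 282, 262 and 334 in the WT stem, 216, 241 and 226 in the KO stem, 578, 422 and 422 in the WT differentiated and 439, 457 and 466 in the KO differentiated libraries, with no overlap between cultures. Its rise was 0.69 ± 0.14, adjusted p = 7.05e-04 in WT and 0.99 ± 0.14, adjusted p = 5.01e-05 in KO.

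Further along, Hoxa4, a cervical patterning gene, stood at 30.98, 32.1 and 38.1 in the WT stem, 57.1, 50.6 and 48.9 in the KO stem, 67.1, 50.2 and 38.6 in the WT differentiated and 70.8, 65.2 and 64.1 in the KO differentiated libraries. It rose in WT (0.58 ± 0.21, adjusted p = 0.026), a call lost without WT stem library 1 or 2 or WT differentiated library 1 or 2 (adjusted p between 0.0538 and 0.121), and not in KO (0.35 ± 0.21, adjusted p = 0.158), where the cultures did not overlap either. Hoxa5, which acts in lung and gut development, stood at 174, 196 and 185 in the WT stem, 138, 224 and 191 in the KO stem, 205, 143 and 204 in the WT differentiated and 212, 243 and 229.7 in the KO differentiated libraries. Stem and differentiated libraries overlapped, the KO differentiated libraries lay above the WT ones, and no comparison called it. Hoxa6 had between 0 and 11.6 in any library, 67 reads in all, and was not tested.

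Hoxa7 and the posterior Hoxa genes varied widely. Hoxa7, a thoracic gene, stood at 299.98, 176 and 295 in the WT stem, 89.96, 239.98 and 181 in the KO stem, 561, 215 and 688 in the WT differentiated and 192, 415 and 434 in the KO differentiated libraries. Hoxa9, best known in blood and leukaemia, stood at 448, 146 and 886 in the WT stem, 91.04, 274 and 468 in the KO stem, 796, 236 and 1597 in the WT differentiated and 130.3, 480.1 and 794 in the KO differentiated libraries. Hoxa10, which patterns lumbar vertebrae and uterus, stood at 486, 52.1 and 486 in the WT stem, 95.3, 189 and 299 in the KO stem, 916, 105 and 1206 in the WT differentiated and 159, 423 and 627 in the KO differentiated libraries. In each of these 3 genes WT number 2 and KO number 1 were the lowest library of their genotype in both cultures. Hoxa11, a gene of kidney, limb and uterus, stood at 147, 6.65 and 61.2 in the WT stem, 26.9, 46.2 and 65.1 in the KO stem, 215, 1.19 and 184 in the WT differentiated and 32.00, 73.8 and 82.5 in the KO differentiated libraries. The lowest value rests on 1 read, so its ratio to WT differentiated library 1, 180.1, has a 95% exact Poisson interval from 32.3 to 7114 for counting error alone. Hoxa13, which is required for the hindgut, digits and genital tubercle, stood at 96.2, 4.43 and 99.3 in the WT stem, 8.62, 28.6 and 61.1 in the KO stem, 334, 8.36 and 436 in the WT differentiated and 12.95, 119.7 and 92.03 in the KO differentiated libraries. The lowest libraries were again WT number 2, with 4 and 7 reads, and KO number 1, with 16 and 17. Group means of these 5 genes were higher after differentiation in both genotypes, the libraries of the cultures overlapped, and no rise passed the test across groups (largest, Hoxa13 in WT, 1.57 ± 1.55, adjusted p = 0.381). Without WT differentiated library 2, Hoxa13 (adjusted p = 0.044) and Hoxa7 (adjusted p = 0.0237) in WT did pass, and Hoxa7 in KO passed without any one of KO stem library 2, WT differentiated library 2 and KO differentiated library 1 (adjusted p between 0.0288 and 0.0476) and with DESeq2 (adjusted p = 0.0348). Between libraries of the same genotype and number, Hoxa7, Hoxa9, Hoxa10 and Hoxa13 were each higher in the differentiated library in 6 of 6, and Hoxa11 in 5 of 6. These ratios are given as a description, since the labels do not say that a number marks a shared source. When the numbers were used as a replicate block within genotype, Hoxa7, Hoxa9, Hoxa10 and Hoxa13 were called higher in both genotypes.

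In Hoxd (chromosome 2, 74668310 to 74765142), 4 genes in the middle of the cluster were expressed. Hoxd8, a trunk gene, stood at 315, 389 and 210.04 in the WT stem, 461, 465 and 465 in the KO stem, 368, 328 and 249.9 in the WT differentiated and 577, 421 and 509 in the KO differentiated libraries. No change with culture passed the test (WT 0.08 ± 0.21, adjusted p = 0.755; KO 0.11 ± 0.21, adjusted p = 0.677), and the KO libraries lay above the WT libraries of the same culture. Hoxd9, which acts in limb and lumbosacral patterning, stood at 44.02, 38.8 and 25.4 in the WT stem, 64.6, 24.95 and 47.8 in the KO stem, 224, 124 and 111 in the WT differentiated and 264, 124 and 171 in the KO differentiated libraries. Each differentiated library was above each stem library, and its change was the largest of the called members in WT and in KO (2.02 ± 0.40, adjusted p = 7.08e-04 and 2.03 ± 0.40, adjusted p = 7.85e-04).

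The other Hoxd genes were lower. Hoxd4, a cervical patterning gene, stood at 24.5, 39.9 and 16.2 in the WT stem, 40.9, 28.6 and 32.6 in the KO stem, 59.5, 39.4 and 34.1 in the WT differentiated and 95.2, 55.6 and 95.4 in the KO differentiated libraries. It rose in KO (1.22 ± 0.35, adjusted p = 0.00848) and missed the threshold in WT (0.75 ± 0.35, adjusted p = 0.0695), where leaving out WT stem library 2 gave an adjusted p of 0.0148. Hoxd3, which patterns the atlas and axis, stood at 11.4, 3.32 and 6.92 in the WT stem, 7.003, 7.34 and 6.11 in the KO stem, 41.2, 25.1 and 11.4 in the WT differentiated and 31.2, 20.3 and 31.4 in the KO differentiated libraries. Its changes were 1.67 ± 0.48, adjusted p = 0.008 in WT, where WT differentiated library 3 did not exceed WT stem library 1, and 1.85 ± 0.48, adjusted p = 0.00479 in KO. Hoxd3 shares 53.1% and Hoxd4 39.1% of its exon length with the overlapping gene Gm28230 on the same strand, whose mean of 30.4 is above that of Hoxd3 (16.9), so the division of reads among the 3 genes is uncertain. Hoxd1 had 35 reads in all libraries, Hoxd13 had 18, of which 11 were in KO stem library 2, Hoxd10 had 4 and Hoxd11 had 3.

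Hoxc (chromosome 15, 102921103 to 103036852) was close to silent outside a single library. WT stem library 1 held 68 reads of Hoxc genes, and the other 11 libraries held 9 between them. Hoxc8, a gene of thoracic skeleton and motor neurons, stood at 45.6, 0 and 0 in the WT stem, 0.539, 0 and 2.04 in the KO stem, 0, 0 and 0 in the WT differentiated and 0, 0 and 0 in the KO differentiated libraries. Normalized counts in WT stem library 1 were 24.5 for Hoxc9, 22.8 for Hoxc6, 13.04 for Hoxc10, 3.26 for Hoxc4 and 1.63 for Hoxc5, and no value above 2.04 was found in another library. Hoxc11 had 1 read and Hoxc13 had 2, all in KO stem libraries. This is the library with the fibroblast and muscle transcripts given above, and it also had the highest Meis2 (158, at most 14.3 elsewhere) and Meis1 (52.2, at most 29.9 elsewhere), cofactors abundant in mesenchyme that were picked out here after their values were seen. The part of those transcripts in the Hoxc reads was not tested. Hoxc8 was the only Hoxc gene to reach a group mean of 10, and without the library none did.

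The culture comparison addresses how Hox levels change when colonic organoids lose Wnt-3A. Beside this stand the rises given above of the epithelial and immune marker sums and of the neuronal sum, which was nearly all Ret. Of the 2 tested genes of the neuron and glia list, 1 was called higher and 1 lower in each genotype. In WT, 11 of 23 members were called (10 higher, 1 lower), where 72.2% of all 14856 genes tested were called (36.3% higher, 35.9% lower). In KO, 11 of 23 were called (10 higher, 1 lower) against 67.7% of all genes (34.1% higher, 33.6% lower). The members' share of calls lay below that of all genes in both genotypes, a difference that was not tested, and Hoxb9 was the 1 downward call in each. Their median change was 0.75 in WT and 0.69 in KO, beside 0.01 in all genes in each. The WT and KO comparisons share no library, but their tests share 1 estimate of each gene's spread from all 12 libraries. In both, 10 members were called in the same direction, 90.9% of each list. Hoxa4 was called in WT and Hoxd4 in KO besides. The share of all genes called in the same direction in both is not given here. Whether the members' overlap is larger than that of other genes therefore cannot be read from it. Between libraries of the same genotype and number, 14 of 23 members were higher after withdrawal in 6 of 6, or 60.9%, and 35.2% of all genes were, while 4.35% and 34.9% were lower. Stem and differentiated libraries did not overlap for 11 members in WT and 12 in KO, where 75% and 74.3% of all genes did not.

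**Figure D2:**
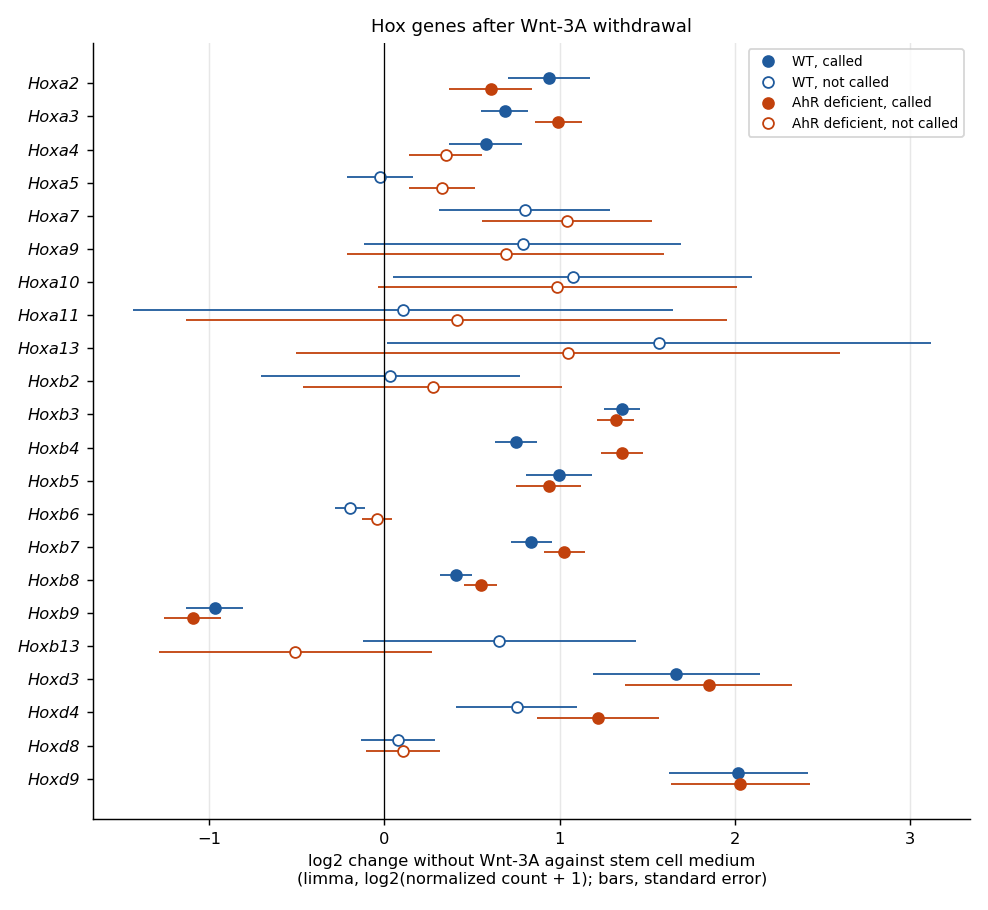
Change of 22 tested Hox genes without Wnt-3A against stem cell medium, on the scale log2(normalized count + 1), with standard errors from limma, WT in blue and KO in orange. Filled points passed adjusted p under 0.05, with Hoxb9 at the far left, Hoxd9 near 2 in both genotypes, and wide errors for Hoxa9 to Hoxa13.

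By axial position, the called rises were not confined to either end. Anterior genes (paralogs 1 to 3) that rose in both genotypes were Hoxa2, Hoxa3, Hoxb3 and Hoxd3, central ones (4 to 8) were Hoxb4, Hoxb5, Hoxb7 and Hoxb8, and the posterior one (9 to 13) was Hoxd9. Hoxa9, Hoxa10 and Hoxa13, higher within each same-numbered set but not called across groups, are not counted here. With a replicate block within genotype these genes were called higher in both genotypes. The posterior genes listed thus depend on whether the numbers are taken as pairs. Hoxb9 and Hoxd9, paralogs of the same group, moved in opposite directions, from 7271 ± 1901 to 3619 ± 7.65 and from 36.1 ± 9.61 to 153 ± 61.4 in WT group means (± SD, n = 3). Hoxb9 remained the highest Hox gene per kb in each group.

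The genotype comparison asks whether Hox levels differ with the AhR label. In stem libraries 1 of 23 members was called, where 6.57% of all genes were (3.48% higher, 3.09% lower). The count was 0 without any 1 of 8 libraries, namely WT stem 3, KO stem 1, 2 and 3, WT differentiated 1, 2 and 3 and KO differentiated 3. Without WT stem 2 it stayed at 1, but with Hoxb13 in place of the member called in the main test. Hoxd8, Hoxb13 and Hoxa4, each higher in KO, missed the threshold (Hoxa4 0.62 ± 0.21, adjusted p = 0.0996). Hoxa3 was lower in KO, without overlap between libraries, and was not called either (-0.35 ± 0.14, adjusted p = 0.14). Libraries of the stem groups did not overlap for 5 members, where 29.5% of all genes did not overlap.

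In differentiated libraries 2 of 23 members were called, both higher in KO, where 27.6% of all genes were called (13.8% higher, 13.9% lower). Hoxb4 had a mean of 211 ± 10.7 against 148 ± 12.4 (0.52 ± 0.12, adjusted p = 0.0104) and kept its call under every alternative run. Hoxd8 had 503 ± 78.3 against 316 ± 60.3 (0.68 ± 0.21, adjusted p = 0.0359). Its call was lost without KO stem 2, WT differentiated 2 or 3, or KO differentiated 1 or 3 (adjusted p between 0.0509 and 0.141). In stem cultures Hoxd8 was also without overlap, at 463 ± 2.50 against 305 ± 89.9, short of the threshold (0.65 ± 0.21, adjusted p = 0.092), which it passed with DESeq2 (adjusted p = 0.0415). In differentiated libraries Hoxd4 was also higher in KO and missed the threshold (0.87 ± 0.35, adjusted p = 0.0824). The differentiated groups did not overlap for 6 members, against 53.1% of all genes. The comparisons of genotype within stem and within differentiated cultures use different libraries, but each shares libraries with the culture comparisons. All of these tests also share 1 estimate of each gene's spread from the 12 libraries.

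**Figure D3:**
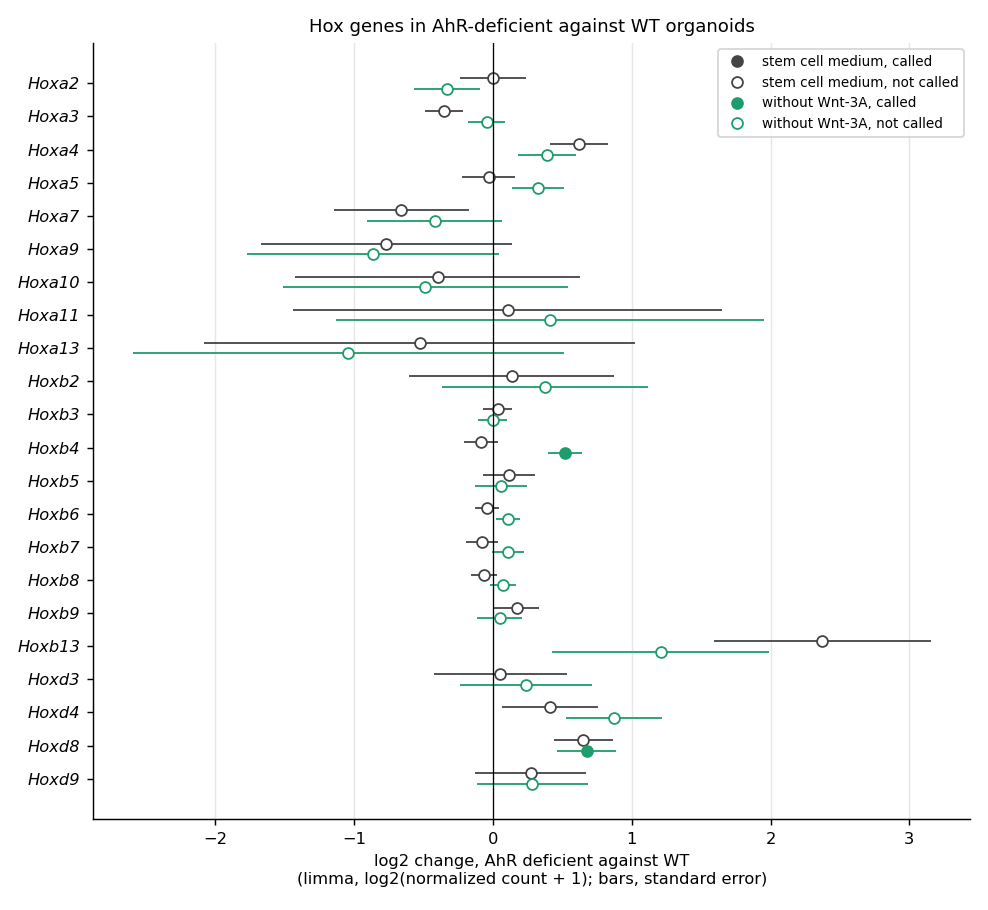
Difference between KO and WT for 22 tested Hox genes on the scale log2(normalized count + 1), with standard errors from limma, stem libraries in dark grey and differentiated libraries in green. Filled points passed adjusted p under 0.05, and those shown are Hoxb4 and Hoxd8 in differentiated libraries.

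Standard errors of the genotype differences were smallest for 4 Hoxb genes. Hoxb3, Hoxb6, Hoxb7 and Hoxb8 had standard errors of at most 0.11 and differences between -0.08 and 0.11 in the 2 cultures. Hoxb9, the highest of the cluster, had a standard error of 0.16, with differences of 0.17 in stem and 0.05 in differentiated libraries. For Hoxa9, Hoxa10, Hoxa11 and Hoxa13 the standard errors were 0.91 to 1.55, so their genotype differences were only loosely estimated. The smallest difference that could have been called was not tested. In the limma test of whether the change with culture differed between genotypes, 0 of 23 members were called, where 8.7% of all genes were (5.12% higher, 3.58% lower). At an unadjusted p under 0.05 there was 1, Hoxb4 (0.60 ± 0.17, adjusted p = 0.051), which edgeR did not call and DESeq2 did, and which passed without WT stem library 1 (adjusted p = 0.0436). Its rise was 1.61-fold to 1.79-fold between same-numbered WT libraries and 2.45-fold to 2.68-fold between KO ones.

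Several Hox genes differed widely between libraries of 1 group, and the same numbers were low in both cultures. An F test of number within genotype, fitted with limma over all 12 libraries with a mean for each group, asked whether libraries with the same genotype and number differ from the others in both cultures. It was chosen after the values had been seen. It called 4 of 23 members and 0.215% of all genes (32 of 14856). Hoxa9 (F = 234, adjusted p = 3.41e-04) and Hoxa10 (F = 175, adjusted p = 6.08e-04) held places 2 and 3 among all genes, Hoxb2 (adjusted p = 0.0168) place 14 and Hoxa13 (adjusted p = 0.0168) place 15. The same 4 were called by edgeR on recovered reads, with pseudocounts of 0.5 and 5, with a mean filter of 50, and without WT stem library 1. Hoxa11 (adjusted p = 0.0893) and Hoxa7 (adjusted p = 0.122) missed the threshold. The labels do not say whether libraries that share a number came from the same mouse or culture.

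**Figure D4:**
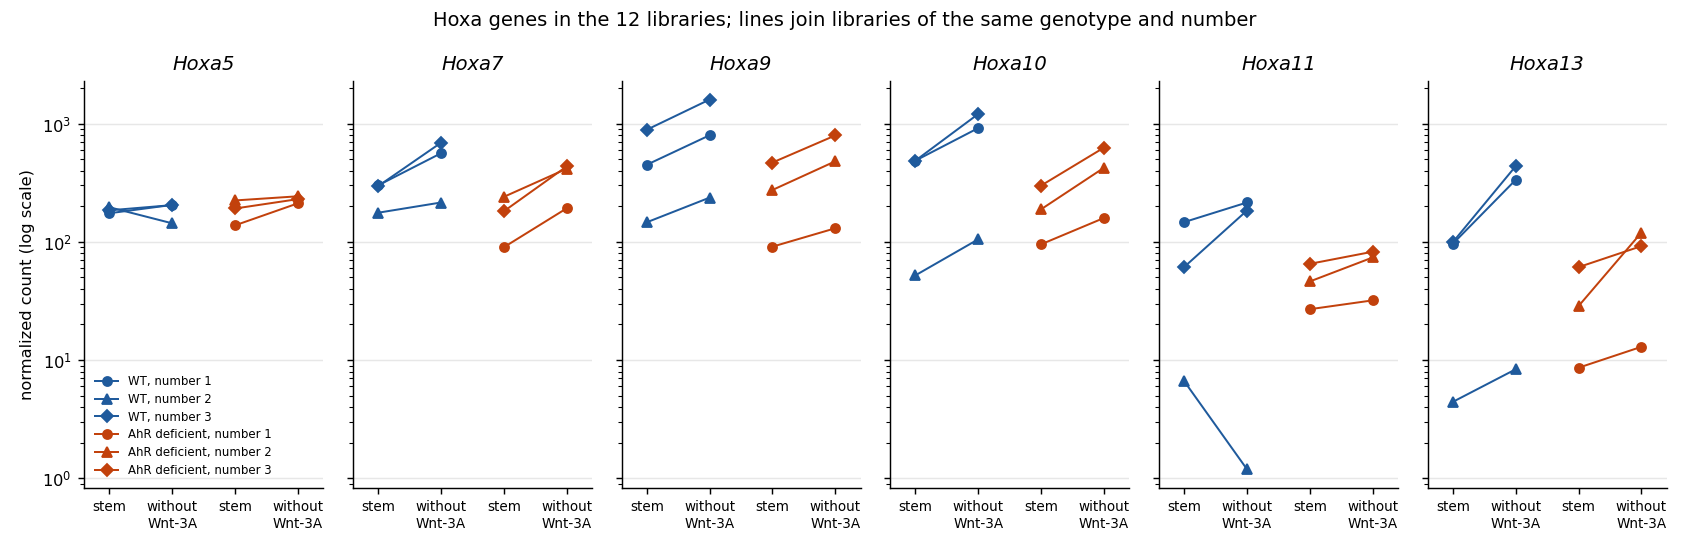
Normalized counts (log axis) of 6 Hoxa genes in the 12 libraries, with lines joining the stem and differentiated libraries of the same genotype and number, WT in blue and KO in orange. From Hoxa9 on, WT number 2 (triangles) and KO number 1 (circles) lie below the other libraries of their genotype in both cultures, while the 6 lines of Hoxa5 lie together.

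For Hoxa9 the order of the numbers was the same in both cultures: 3, 1 and 2 from high to low in WT and 3, 2 and 1 in KO. The highest library exceeded the lowest of its group between 5.14-fold and 6.75-fold, whereas the differentiated library exceeded the stem library of the same number between 1.43-fold and 1.80-fold. For Hoxa10 these ranges were 3.14-fold to 11.5-fold and 1.67-fold to 2.48-fold. Hoxb2 was also lowest in KO number 1 in both cultures, but its highest WT library was number 1 and its highest KO library number 2, which was not the order of Hoxa9.

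In Hoxa the spread between libraries was small at the 3′ end and larger from Hoxa7 on. From Hoxa2 to Hoxa5 the highest library of a group was between 1.06 and 1.74 times the lowest. It was 1.70 to 3.201 times for Hoxa7, whose 3′ end lies 58.9 kb from the 3′ end of the cluster, 3.14 to 11.5 times for Hoxa10, at 75.6 kb, and 7.09 to 52.2 times for Hoxa13, at 102 kb. Between Hoxa5 and Hoxa9, at 46.2 and 67.5 kb, the largest of the 4 group ratios thus went from 1.62 to 6.75. In WT it was larger for Hoxa10, Hoxa11 and Hoxa13 than for Hoxa9, while in KO it was smaller for Hoxa10 and Hoxa11 than for Hoxa9 and largest for Hoxa13. In Hoxb the wide ratios were at the ends: Hoxb2 reached 6.502, close to Hoxa9, and Hoxb13 reached 4.53. Between them, from Hoxb3 to Hoxb9, the ratio stayed between 1.004 and 1.79, so that it dropped sharply from Hoxb2 to its neighbour Hoxb3 (at most 1.198). Hoxb9, the paralog of Hoxa9, was at most 1.65, and in Hoxd the ratio was at most 3.63.

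**Figure D5:**
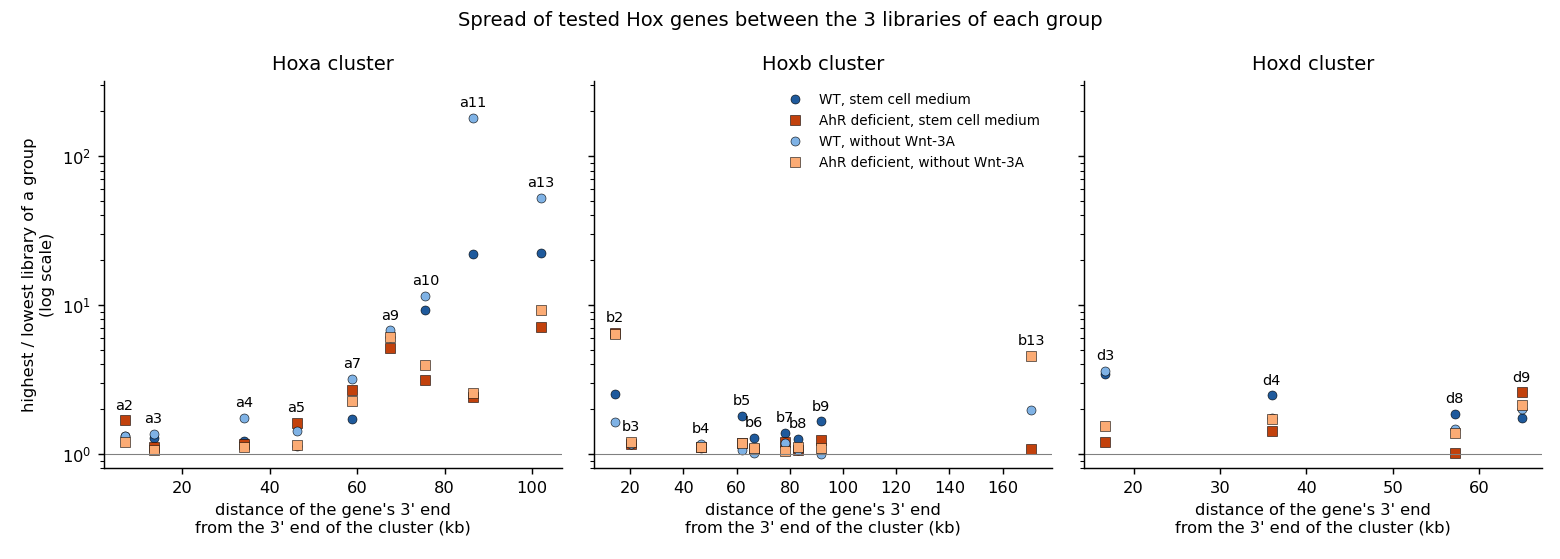
Ratio of the highest to the lowest of the 3 libraries of a group (log axis) for tested Hox genes against the distance of the gene's 3′ end from the 3′ end of its cluster in kb, with 1 point per group. The ratio is higher beyond Hoxa5 than before it in Hoxa and stays low from Hoxb3 to Hoxb9 but not at Hoxb2 and Hoxb13. Hoxb13 in the WT stem group has no point because a library is at 0.

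Hoxa11os, antisense to Hoxa11 and sharing 35.0% of that gene's exon length on the other strand, stood at 158, 8.86 and 132 in the WT stem, 39.9, 66.05 and 107 in the KO stem, 246, 2.39 and 249.9 in the WT differentiated and 42.7, 93.02 and 102 in the KO differentiated libraries. Its lowest libraries were WT number 2 and KO number 1, and it was past the threshold of the same test (adjusted p = 0.0401), although without strand its reads cannot be told from those of Hoxa11. Evx1, the homeobox gene beyond the 5′ end of Hoxa, stood at 79.9, 33.2 and 57.7 in the WT stem, 4.31, 13.2 and 13.2 in the KO stem, 102, 28.7 and 47.7 in the WT differentiated and 3.05, 17.1 and 22.5 in the KO differentiated libraries. It was lower in KO than in WT, with a called difference in differentiated libraries (-2.15 ± 0.69, adjusted p = 0.0401) and an uncalled one in stem libraries (-2.41 ± 0.69, adjusted p = 0.0618).

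Of the 43 non-coding genes inside the cluster spans, 23 had no reads and 9 reached a mean of 10, namely Gm53, Hoxaas3, Hoxa11os, Hotairm1, Hoxb5os, Hoxb3os, Hoxd3os1, Gm15050 and 9530018H14Rik. Withdrawal of Wnt-3A called 2 of these 9 in each genotype, where 72.2% of all genes were called in WT and 67.7% in KO. Gm53, in Hoxb, rose (0.62 ± 0.13, adjusted p = 8.79e-04 in WT and 0.83 ± 0.13, adjusted p = 1.08e-04 in KO), and Hoxb5os fell from a mean of 52.97 to 11.9 in WT and from 103 to 17.8 in KO (log2 -2.09 ± 0.36, adjusted p = 2.38e-04 and -2.51 ± 0.36, adjusted p = 6.98e-05), against the direction of Hoxb5. Hoxd3os1 was higher in KO differentiated libraries (1.40 ± 0.45, adjusted p = 0.0407).

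The known upstream and partner genes of the Hox system were read from lists. The Cdx and ParaHox list had 3 of 6 genes tested. Cdx1, an intestinal activator of Hox genes, stood at 4320.4, 4841 and 3604 in the WT stem, 612, 703 and 924 in the KO stem, 5796, 4705 and 5663 in the WT differentiated and 1783, 3031 and 3360.2 in the KO differentiated libraries. All KO libraries were below all WT libraries of the same culture (-2.52 ± 0.22, adjusted p = 1.07e-04 in stem and -1.03 ± 0.22, adjusted p = 0.00745 in differentiated libraries), and the 2 differences differed from each other (interaction 1.49 ± 0.32, adjusted p = 0.0204). Cdx2, the master regulator of intestinal identity, was lower in KO differentiated libraries (-0.66 ± 0.16, adjusted p = 0.0109) and not called in stem ones (-0.27 ± 0.16, adjusted p = 0.314). Pdx1, of duodenum and pancreas, was also lower in KO differentiated libraries (-1.24 ± 0.42, adjusted p = 0.0486), with a stem difference of -0.17 ± 0.42, adjusted p = 0.837. On withdrawal Cdx2 rose in both genotypes (0.77 ± 0.16, adjusted p = 8.57e-04 in WT and 0.38 ± 0.16, adjusted p = 0.0488 in KO), Pdx1 in WT (1.31 ± 0.42, adjusted p = 0.0152) and Cdx1 in KO (1.84 ± 0.22, adjusted p = 2.02e-05).

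Of the Hox cofactors with a TALE homeobox, 7 of 9 were tested. In KO against WT, 2 of the 7 were called higher in stem libraries, Meis3 among them (0.63 ± 0.16, adjusted p = 0.0447), and 1 in differentiated libraries. Of all genes, 3.48% and 13.8% were called higher in these comparisons. None of the 7 was called lower in either culture. On withdrawal 3 rose and 3 fell in each genotype, where 72.2% of all genes were called in WT and 67.7% in KO. Meis3 rose most (2.02 ± 0.16, adjusted p = 5.27e-07 in WT, 1.77 ± 0.16, adjusted p = 2.29e-06 in KO), and Pbx2 rose too, while Pbx3 fell most (-1.57 ± 0.14, adjusted p = 1.04e-06 and -1.49 ± 0.14, adjusted p = 2.31e-06), with Pbx4 and Pknox1.

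Among 26 Polycomb genes, which encode repressors of unused Hox genes, 11 rose and 12 fell on withdrawal in WT and 12 rose and 9 fell in KO. Of all genes tested, 72.2% were called on withdrawal in WT and 67.7% in KO. Phf19, an accessory Polycomb subunit, fell most (-4.39 ± 0.20, adjusted p = 6.17e-09 in WT), together with the core subunit Suz12 (-1.17 ± 0.09, adjusted p = 3.03e-07), and Phf1, a paralog of Phf19, rose most (2.22 ± 0.10, adjusted p = 3.58e-09). By genotype 1 was higher and 3 were lower in KO stem libraries, where 6.57% of all genes were called. In differentiated libraries 9 were higher and 2 lower, where 27.6% of all genes were called. The changes of these regulators and those of the members were not tied to each other by a test. Bmi1, a Polycomb repressive complex subunit, was lower in both (-0.54 ± 0.07, adjusted p = 9.10e-04 and -0.60 ± 0.07, adjusted p = 3.28e-04). All 12 genes of the Trithorax and H3K27 demethylase list were called on withdrawal, 8 higher and 4 lower in each genotype, beside the 72.2% and 67.7% of all genes. Kmt2c (1.11 ± 0.18, adjusted p = 1.55e-04) and Dpy30 (-1.37 ± 0.10, adjusted p = 1.89e-07) were the most changed in either direction in WT. In KO against WT, Ash2l was lower in stem libraries (-0.24 ± 0.06, adjusted p = 0.0471), and in differentiated ones Kmt2c was lower (-0.69 ± 0.18, adjusted p = 0.0162) and Wdr5 higher (0.29 ± 0.07, adjusted p = 0.0163).

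A list of regional identity genes of the gut had 6 of 14 genes tested. All 6 rose on withdrawal in both genotypes, where 36.3% of all genes were called higher in WT and 34.1% in KO. The rises were led by the ileal bile acid transporter Slc10a2 (5.09 ± 0.42, adjusted p = 5.79e-07 in WT) and the brush border enzyme Sis (4.14 ± 0.50, adjusted p = 1.50e-05), with Gata5, Onecut2 and Gata6 among the others. By genotype, 1 of the 6 was called lower in KO in stem and 1 in differentiated libraries, where 3.09% and 13.9% of all genes were called lower.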

How the data were processed

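Total RNA of colonic organoids was sequenced in 12 libraries (3 per group). Each value of the deposited table is a signal, the gene's count normalized between libraries by the authors. The submitters' processing notes name GRCm38, Bowtie2, RSEM 1.2.11 and DESeq2 1.18.1. Annotation, filters and strand use are not given in the sources used here. In every library 100.0% of values were whole multiples of 1 step within a tolerance of 0.05 reads, so reads were recovered by division. On these, edgeR called 1 member by genotype in stem and 2 in differentiated libraries, and 12 by culture in WT and 10 in KO. The share of all genes called by edgeR is not given here.

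log2(normalized count + 1) was tested with limma 3.58.1 (R 4.3.3) on 4 group means with a mean-variance trend, two-sided, over the 14856 genes with at least 10 in at least 3 libraries, with Benjamini-Hochberg adjustment and calls at adjusted p under 0.05. edgeR 4.0.16 and DESeq2 1.42.0 on recovered reads, other pseudocounts, filters and normalizations, a replicate block and leaving out each library were alternatives. The scripts were tested on simulated data. Members were named by symbol in GENCODE vM21, which matched 99.1% of identifiers. Members with a mean of 10 in a group are given per library, and of other lists up to 4 called genes with the largest change per comparison. Members, lists and tests were chosen with earlier results of these data known. Results for some genes are not reported here. Intervals and floors (3 reads) cover counting error only.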

Additional observations from a re-analysis of the deposited data

Results flagged for a closer look

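None of the 23 Hox genes passed the limma test of whether the change with culture differed between WT and KO, but 6 genes of the lists set beside them did pass, a positive value meaning a higher change in KO. Cdx1 had 1.49 ± 0.32, adjusted p = 0.0204. Among Polycomb genes, Ezh2 had 0.40 ± 0.09, adjusted p = 0.0254, Eed had 0.32 ± 0.09, adjusted p = 0.0423 and Phf1 had -0.53 ± 0.14, adjusted p = 0.0361. The Trithorax gene Wdr5 had 0.48 ± 0.10, adjusted p = 0.0217, and Ret, from the neuronal list, had -1.02 ± 0.24, adjusted p = 0.0295. Over all 14856 genes, 8.7% were called.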

How the results depend on the processing

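Over 115 member changes and 2671 alternative values, 36 lost and 28 gained a call. None that was called in the main or the alternative run had opposite signs in the 2 runs. Sign changes between uncalled values were not counted and did occur. For Hoxa10 in KO against WT stem libraries, -0.40 ± 1.02 became 0.13 ± 1.13 without WT stem library 1. For KO against WT in stem libraries the count of called members, 1, became 0 with no filter, with a mean of at least 50 and with only the groups compared, and 2 with DESeq2 (Hoxd8 added) and with the replicate block, and ranged from 0 to 1 when single libraries were left out. In differentiated libraries the count of 2 became 1 with no filter and ranged from 1 to 2 without single libraries. For the interaction, 0 became 1 (Hoxb4) with a pseudocount of 5, a mean of at least 50 and DESeq2, and ranged from 0 to 1. The culture counts lay between 9 and 15 in WT and 8 and 14 in KO. The cause of these shifts was not tested.

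Deviations of same-numbered libraries of 1 genotype correlated with r between 0.0942 and 0.398 across 12161 genes (6 pairs), and those with different numbers between -0.326 and 0.0438. Each same-numbered value thus lay above every differently numbered one. Not every pair passed 0.1, the cut used here, and the labels do not say what a number marks. The main culture and genotype tests therefore did not pair the samples. With a replicate block within genotype, 15 members were called on withdrawal in WT (14 higher) and 14 in KO (13 higher), 10 of the 11 calls being shared in each. The share of all genes called with this block is not given here. Whether the members gained more calls than other genes therefore cannot be read from these counts. Hoxa7, Hoxa9, Hoxa10 and Hoxa13 were gained in both genotypes and Hoxd4 in WT, and Hoxa4 in WT and Hoxa2 in KO were lost. By limma with this block, the adjusted p in WT and KO was 0.00446 and 0.00128 for Hoxa7 and 1.69e-04 and 4.31e-04 for Hoxa9. It was 1.33e-04 and 2.66e-04 for Hoxa10 and 0.0052 and 0.0338 for Hoxa13. The block over both genotypes gained Hoxb13 for the stem label comparison and Hoxb6 in WT for culture. With 1 block of 3 numbers over both genotypes the pairing gave 12 and 11. Depth limits Hoxa6, Hoxb13, Hoxd1 and the low Hoxa11 and Hoxa13 libraries, which rest on a few reads.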
